A study of Homo sapiens with 31 samples.

Results

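The genes described here encode the enzymes of gluconeogenesis: the glucose-6-phosphatase subunits G6PC1 and G6PC3, the glucose-6-phosphate transporter SLC37A4, the phosphoenolpyruvate carboxykinases PCK1 and PCK2, fructose bisphosphatase FBP1, and pyruvate carboxylase PC. They were chosen by name, 7 of the 22395 genes with a probe set assigned to only 1 gene, after an earlier look at these data had shown G6PC1 among the largest falls in the chip in control media. All 7 were measured, each by 1 probe set. Their levels in the control arrays of both culture systems are therefore given as a description, without a test, and the tests of the culture systems are confined to the exposed arrays. The exposure responses and the control media were tested too, but they reuse the control arrays. G6PC1 came to notice by a low control level in the chip beside a higher one on Transwell. This choice favours a rise on exposure in the chip and a fall on Transwell, so its exposure responses are described without a test.

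The arrays were hybridised with RNA from Caco-2, an established line from a human colon carcinoma whose confluent cells become polarised and enterocyte-like. Culture lasted 21 days, static on Transwell membranes or dynamic in a gut-on-chip perfused at 100 µL/h, and was followed by an incubation of 6 h. The static groups were Transwell TiO2-control and Transwell ZnO-control (dispersion medium without metal), Transwell TiO2 (50 µg/mL of titanium dioxide nanomaterial) and Transwell ZnO (10 µg/mL of zinc oxide nanomaterial). The dynamic groups were chip TiO2-control, chip TiO2 (100 µg/mL), chip ZnO-control and chip ZnO (80 µg/mL). The concentrations had been modelled by the submitters for equal deposited doses, and the flow in the chip was stopped during the incubation. Each group had 4 arrays, except Transwell TiO2 with 3. Nothing in the labels says whether replicates came from separate cultures, so p-values measure the spread between these arrays, which may be technical.

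Gluconeogenesis makes glucose from lactate, amino acids and glycerol and shares most of its steps with glycolysis, run in reverse. The steps that glycolysis cannot run backwards have enzymes of their own: PC makes oxaloacetate from pyruvate in mitochondria, PCK1 in the cytosol and PCK2 in mitochondria make phosphoenolpyruvate from it, FBP1 removes a phosphate from fructose bisphosphate, and SLC37A4 carries glucose-6-phosphate into the endoplasmic reticulum, where G6PC1 releases free glucose. G6PC3 is the widely expressed form of the phosphatase. Liver and kidney are the main gluconeogenic organs, and the small intestine also expresses the set.

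Promoter windows from RefSeq (GRCh38.p14) were found for 6 of the 7 genes, with 11 windows in all. PCK1 had no window. The bases before the start of G6PC1 and of the second SLC37A4 start are shown because these genes act at the same step, both were lower in the chip, and both hold the letters TATAAA (the TATA box motif). The capitals mark TATAAA, which was searched on both strands, as were the other motifs given.
G6PC1 (chr17:42900549-42900798, plus strand, 250 bases before the start): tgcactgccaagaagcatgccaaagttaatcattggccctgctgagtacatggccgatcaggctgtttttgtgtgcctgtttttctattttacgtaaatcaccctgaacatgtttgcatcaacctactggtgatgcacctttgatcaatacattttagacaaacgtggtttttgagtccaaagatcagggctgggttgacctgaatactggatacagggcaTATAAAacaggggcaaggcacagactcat
SLC37A4 (chr11:119029481-119029540, minus strand, 60 bases before the second start): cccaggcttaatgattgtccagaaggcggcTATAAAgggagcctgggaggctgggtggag

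TATAAA lay 29 to 24 bases before the G6PC1 start and 30 to 25 bases before the second SLC37A4 start. It was found in the windows of 2 of the 6 member genes with windows, though not in the first window of SLC37A4. Of 35116 windows of the same length (300 bases), 11.5% hold it. The member counts are of genes, some with several windows, and the shares are of windows, so these are not directly comparable. TGACG, the core of the cyclic AMP response element, was found in 1 member, PC, and in 24.6% of all windows. TGTTCT, part of the glucocorticoid receptor's site, was likewise found in PC alone among the members and in 14.8% of all windows. The full element TGACGTCA (1.85% of all windows), the forkhead letters TGTTTAC (3.42%) and TGTTTTG (4.92%), the HNF4 letters CAAAGTCCA (0.384%) and AAAGTCCA (1.14%), and the C/EBP letters TTGCGCAA (0.151%) and ATTGCA (8.21%) had no match in the member windows. The windows overlap for genes with several starts, and a match is a description of these letters only.

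Levels are RMA values on the log2 scale, so that a difference of 1 is a doubling. The array medians of all probe sets lay between 3.24 and 3.33, and a group mean below the medians of its arrays was not taken as shown above background. Principal component 1 (52.3% of the variance) separated the culture systems. On component 3 (4.41%), chip TiO2 replicate 4 lay at -12.2, away from the other chip TiO2 arrays (9.63 to 15.8), and chip TiO2-control replicate 4 lay at 9.0, away from the other chip TiO2-control arrays (-20.6 to -14.5). Each of these arrays thus lay on the side of the other group. The members' results that use them are given with and without both, the latter once per comparison. All 13 Caco-2 and enterocyte markers, among them VIL1, CDX2 and EPCAM, were above the array median in every array of both systems. In these bulk samples, fewer cells of a type and less RNA per cell cannot be told apart.

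The 7 genes split by culture system into those that were lower in the chip, 1 that was higher, and those that overlapped. In all 16 chip arrays G6PC1, SLC37A4, FBP1 and PC read below all 15 Transwell arrays, and PCK1 read above them. The arrays include the control arrays through which the genes came to notice, so this is a description. Of all 22395 genes, 3.8% were lower in the chip without overlap and 2.91% were higher. G6PC3 and PCK2 overlapped between the systems.

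**Figure D1:**
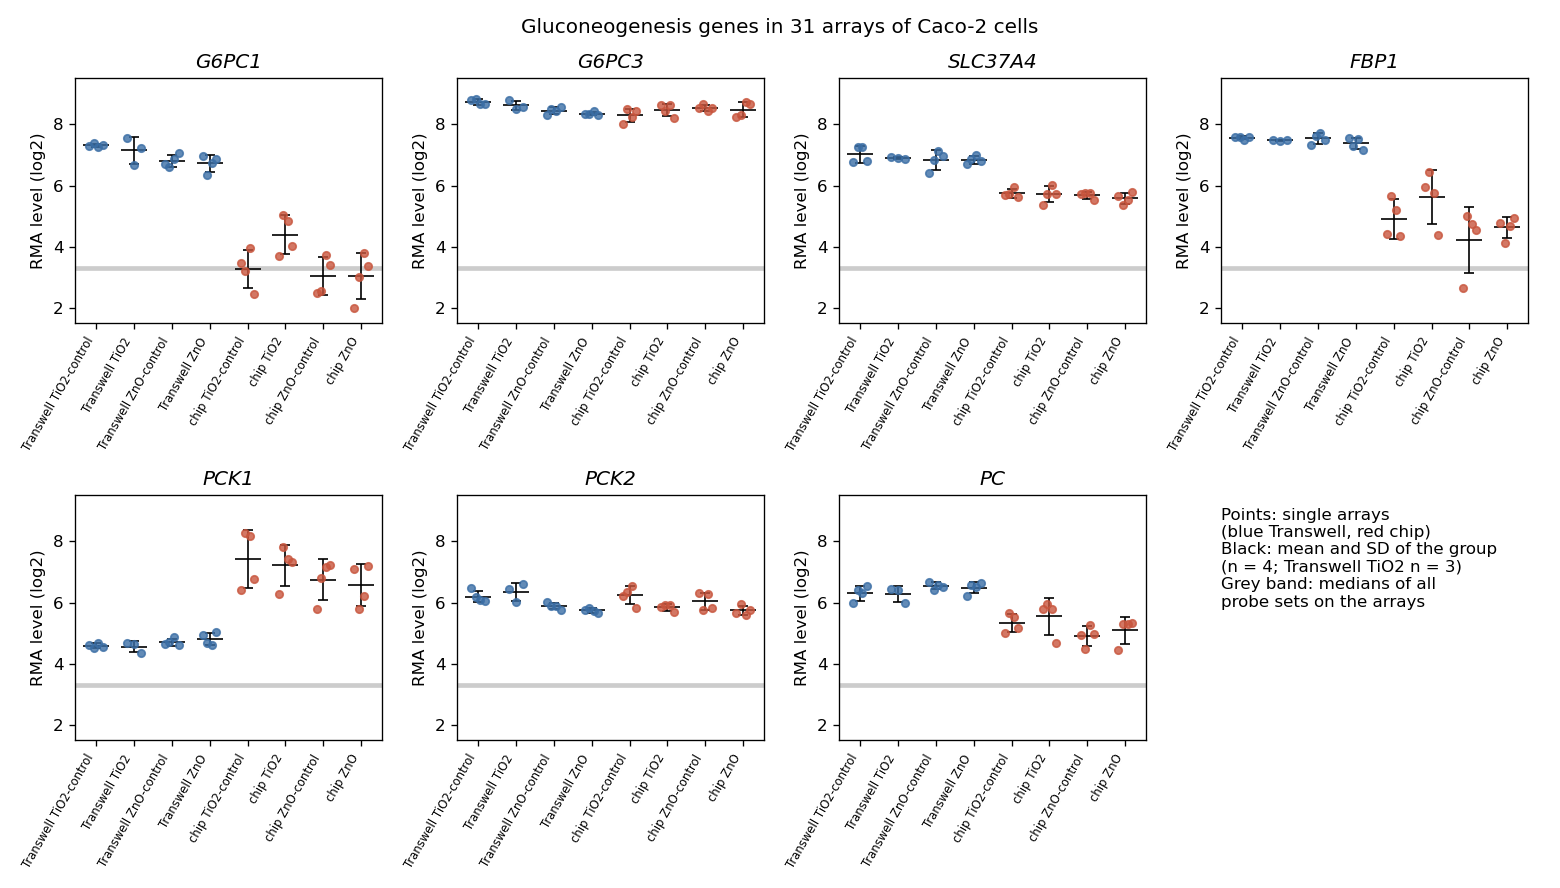
RMA level on the log2 scale (vertical axis) of the 7 gluconeogenesis genes in the 8 groups (horizontal axis), with 1 point per array, blue for Transwell and red for chip, and black bars for the mean and SD; the grey band spans the medians of all probe sets, 3.24 to 3.33. G6PC1, SLC37A4, FBP1 and PC sit lower in every chip array than in any Transwell array, PCK1 sits higher, and G6PC3 and PCK2 overlap.

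G6PC1, the catalytic subunit that releases glucose, had the widest range of group means of the 7, 4.27. On Transwell it read 7.30, 7.38, 7.25 and 7.34 in TiO2-control, 7.55, 6.67 and 7.23 in TiO2, 6.72, 6.61, 6.87 and 7.05 in ZnO-control, and 6.98, 6.35, 6.74 and 6.88 in ZnO. In the chip it read 3.46, 3.23, 3.96 and 2.48 in TiO2-control, 3.69, 5.03, 4.83 and 4.04 in TiO2, 2.48, 2.56, 3.73 and 3.41 in ZnO-control, and 2.02, 3.02, 3.79 and 3.36 in ZnO. The lowest Transwell array thus stood above the highest chip array. The group means of the chip were below the array medians in TiO2-control, ZnO-control and ZnO, but not in TiO2, so the size of the difference is limited there by the background of the array. In control media the chip minus Transwell difference, averaged over both media, was -3.90 ± 0.24 (SE).

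After TiO2, G6PC1 was 6.75-fold lower in the chip, a difference of -2.75 ± 0.36 on the log2 scale (SE; adjusted p = 2.18e-06, limma with Benjamini-Hochberg adjustment over all genes). After ZnO the difference was -3.69 ± 0.33 (adjusted p = 1.06e-09, limma), with the chip level below the array medians. Without both chip arrays numbered 4 of the TiO2 set, the difference after TiO2 was -2.63, and that in control media was -3.77.

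SLC37A4, which supplies the phosphatase with its substrate, moved over a narrower range. On Transwell its arrays read 6.78, 7.26, 7.27 and 6.80 in TiO2-control, 6.94, 6.90 and 6.87 in TiO2, 6.40, 6.85, 7.12 and 6.98 in ZnO-control, and 6.70, 6.87, 7.01 and 6.81 in ZnO. In the chip they read 5.68, 5.74, 5.95 and 5.62 in TiO2-control, 5.37, 5.73, 6.03 and 5.74 in TiO2, 5.72, 5.76, 5.75 and 5.52 in ZnO-control, and 5.66, 5.36, 5.54 and 5.79 in ZnO. The gap between the systems was small but free of overlap, with 6.40 as the lowest Transwell value and 6.03 as the highest chip value. The transporter was 2.27-fold lower in the chip after TiO2, a difference of -1.19 ± 0.16 (adjusted p = 3.19e-06, limma), and -1.26 ± 0.15 after ZnO (adjusted p = 1.05e-07, limma). In control media the difference was -1.22 ± 0.10. It was -1.19 both after TiO2 and in control media without both chip arrays numbered 4.

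G6PC3 encodes the other phosphatase subunit. Its arrays ran from 8.30 to 8.83 on Transwell, with a median of 8.51, and from 8.02 to 8.72 in the chip, with a median of 8.46. The ranges over all arrays overlapped. In TiO2-control alone the lowest Transwell array (8.65) read above the highest chip array (8.49). In control media the difference was -0.18 ± 0.08, with an interval of -0.35 to -0.01, and -0.20 without both chip arrays numbered 4. The chip minus Transwell difference was -0.14 ± 0.13 after TiO2, with a 95% interval of -0.41 to 0.12 (adjusted p = 0.526, limma), and 0.14 ± 0.12 after ZnO, with an interval of -0.11 to 0.38 (adjusted p = 0.46, limma). The difference after TiO2 was -0.06 without both chip arrays numbered 4 (adjusted p = 0.834, limma).

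The within-array difference between the phosphatase forms, G6PC1 minus G6PC3, cancels any factor common to an array. After ZnO it averaged -5.43 ± 0.56 (SD, n = 4) in the chip and -1.61 ± 0.29 (SD, n = 4) on Transwell, a chip minus Transwell change of -3.82 (exact two-sided permutation test, p = 0.0286, the smallest that 70 splits allow). G6PC1 in chip ZnO lay below the array medians, so the background of the array limits the size of this change. After TiO2 it averaged -4.08 ± 0.67 (SD, n = 4) and -1.47 ± 0.31 (SD, n = 3), with p = 0.0571 in the exact permutation test. The test as used doubles the p of the smaller tail, so with 35 splits it could not fall below 0.0571. The change after TiO2 was -2.61, and -2.58 without both chip arrays numbered 4 (3 against 3 arrays, exact permutation p = 0.1, the smallest of 20 splits). Adjusted over the 4 such comparisons, which include the carboxykinase pair, every exact permutation p was 0.0571. Only the change of this difference between the systems is read, since the levels of separate probe sets are not comparable.

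FBP1, the fructose bisphosphatase, varied little on Transwell and widely in the chip. Its Transwell arrays read 7.59, 7.58, 7.48 and 7.58 in TiO2-control, 7.50, 7.46 and 7.49 in TiO2, 7.33, 7.62, 7.73 and 7.50 in ZnO-control, and 7.55, 7.31, 7.51 and 7.16 in ZnO. Its chip arrays read 4.41, 5.66, 5.22 and 4.34 in TiO2-control, 5.94, 6.43, 5.74 and 4.40 in TiO2, 2.64, 5.01, 4.74 and 4.55 in ZnO-control, and 4.76, 4.14, 4.67 and 4.96 in ZnO. No chip array reached the lowest Transwell array, and chip ZnO-control replicate 1 was the lowest of all. FBP1 was 3.62-fold lower in the chip after TiO2, a difference of -1.85 ± 0.40 (adjusted p = 0.00134, limma), and 6.72-fold lower after ZnO, a difference of -2.75 ± 0.37 (adjusted p = 1.21e-06, limma). Without both chip arrays numbered 4 of the TiO2 set, the first of these was -1.44 (adjusted p = 0.00684, limma). In control media it was -2.98 ± 0.26, and -2.89 without those arrays.

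PCK1, the cytosolic carboxykinase that is often used as a readout of gluconeogenic drive in liver, ran in the opposite direction to G6PC1 and FBP1. On Transwell it read 4.61, 4.51, 4.69 and 4.56 in TiO2-control, 4.68, 4.65 and 4.37 in TiO2, 4.65, 4.72, 4.87 and 4.61 in ZnO-control, and 4.94, 4.67, 4.61 and 5.03 in ZnO. In the chip it read 6.42, 8.28, 8.16 and 6.79 in TiO2-control, 6.28, 7.82, 7.43 and 7.33 in TiO2, 5.80, 6.81, 7.16 and 7.23 in ZnO-control, and 7.10, 5.79, 6.23 and 7.19 in ZnO. Every chip array stood above every Transwell array, and the chip arrays differed among themselves far more. PCK1 was 6.28-fold higher in the chip after TiO2, a difference of 2.65 ± 0.39 (adjusted p = 1.09e-05, limma), and 3.39-fold higher after ZnO, a difference of 1.76 ± 0.36 (adjusted p = 3.01e-04, limma). In control media it was 2.43 ± 0.25. The difference was 2.61 after TiO2 and 2.53 in control media without both chip arrays numbered 4.

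PCK2, the mitochondrial carboxykinase, overlapped between the systems, with a range of 5.65 to 6.59 on Transwell and 5.61 to 6.54 in the chip. After TiO2 it read 6.45, 6.03 and 6.59 on Transwell and 5.87, 5.93, 5.91 and 5.69 in the chip. These 2 groups did not overlap, and PCK2 was lower in the chip, with a difference of -0.51 ± 0.16 (adjusted p = 0.0214, limma). The call was lost without Transwell TiO2 replicate 1 (adjusted p = 0.0932), without Transwell TiO2 replicate 3 (0.152), without chip TiO2 replicate 4 (0.0606) and with only the compared groups in the limma fit (0.065). Without both chip arrays numbered 4 it held at -0.45 (adjusted p = 0.038, limma). After ZnO the difference was 0.00 ± 0.14, with an interval of -0.29 to 0.30 (adjusted p = 0.99, limma). The within-array difference PCK1 minus PCK2 was higher in the chip by 3.16 after TiO2 (exact permutation p = 0.0571) and by 1.76 after ZnO (exact permutation p = 0.0286). Each is the smallest p that the test as used allows. The former was 3.06 without both chip arrays numbered 4 (exact permutation p = 0.1, the smallest possible).

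PC, the entry enzyme of the pathway from pyruvate, read 5.97, 6.40, 6.32 and 6.53 in Transwell TiO2-control, 6.46, 6.41 and 5.99 in TiO2, 6.67, 6.41, 6.59 and 6.52 in ZnO-control, and 6.23, 6.58, 6.50 and 6.64 in ZnO. In the chip it read 5.0, 5.66, 5.52 and 5.19 in TiO2-control, 5.80, 5.94, 5.79 and 4.67 in TiO2, 4.94, 4.48, 5.28 and 4.98 in ZnO-control, and 4.45, 5.31, 5.31 and 5.35 in ZnO. The systems met closely, since the highest chip array (5.94) came just under the lowest Transwell array (5.97). After ZnO, PC was 2.61-fold lower in the chip, a difference of -1.38 ± 0.23 (adjusted p = 1.98e-05, limma). After TiO2 the difference was -0.73 ± 0.25 (adjusted p = 0.0361, limma), and without both chip arrays numbered 4 it was -0.44 and no longer passed (adjusted p = 0.18, limma). This call was also lost without chip TiO2 replicate 4 alone (0.179), Transwell TiO2 replicate 1 (0.141) or replicate 2 (0.127), and with only the compared groups in the fit (0.149). In control media the difference was -1.29 ± 0.16, and -1.27 without both.

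In total, 6 of the 7 genes passed after TiO2, 5 lower and 1 higher in the chip, where 18.2% of all genes passed, and 5 of 7 passed after ZnO, 4 lower and 1 higher, where 29.8% passed. Lower calls made up 10.2% of all genes after TiO2 and 16.5% after ZnO. The median difference of the 7 genes was -0.73 after TiO2 and -1.26 after ZnO, beside 0.01 and 0.02 over all genes. Without both chip arrays numbered 4, 5 members passed after TiO2, where 18.1% of all genes did. The median of the 7 genes was then -0.45, beside 0.02 over all genes. The nominal concentrations differed between the systems in these comparisons. Both exposed comparisons have arrays of their own and share no control array.

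**Figure D2:**
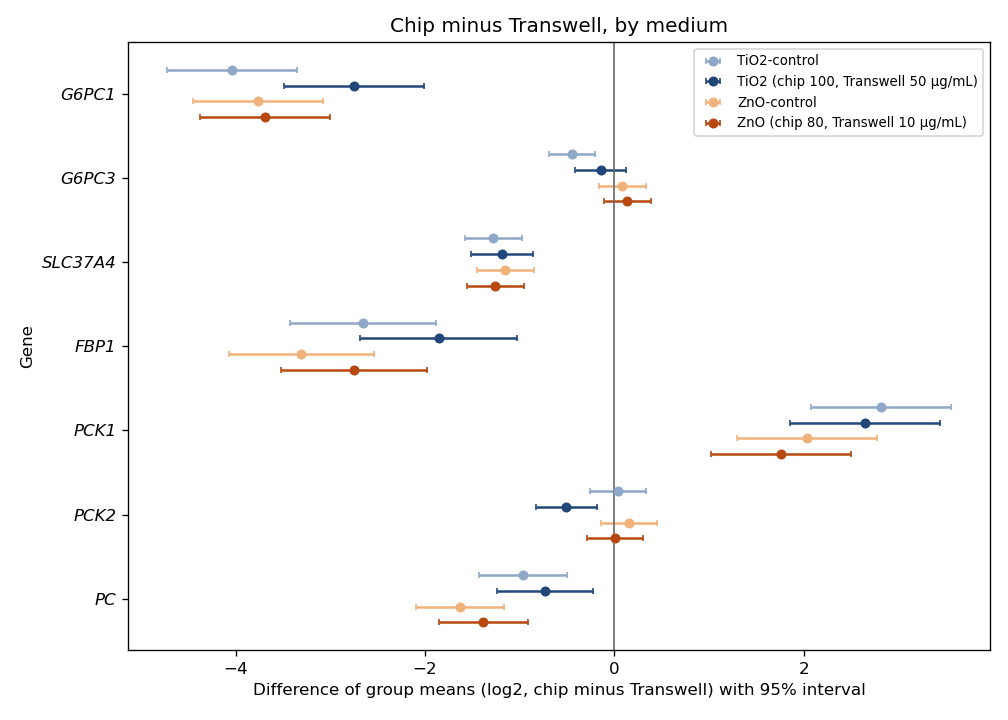
Chip minus Transwell difference of group means (log2, horizontal axis) for each gene (vertical axis) in the 2 control media and after the 2 exposures, with 95% intervals from the limma fit. The intervals of G6PC1, SLC37A4, FBP1 and PC lie below 0 and those of PCK1 above 0 in all 4 media, whereas PCK2 lies below 0 after TiO2 and G6PC3 in TiO2-control alone; the control media are a description.

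By single medium the control differences of the 5 separated genes had the same sign. G6PC1 differed by -4.04 in TiO2-control and -3.77 in ZnO-control, FBP1 by -2.65 and -3.31, PC by -0.96 and -1.63, SLC37A4 by -1.28 and -1.15, and PCK1 by 2.82 and 2.04. For G6PC1 both chip control means lay below the array medians, so these sizes are limited by background. When both chip arrays numbered 4 were left out, the differences in TiO2-control were -3.77 for G6PC1, -2.47 for FBP1, -0.91 for PC, -1.24 for SLC37A4 and 3.03 for PCK1. In the order of the 8 group means, the only neighbours that did not overlap for these 5 genes were the lowest group of the higher system and the highest group of the other. For G6PC3 and PCK2 all neighbours overlapped.

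The next question was whether 6 h of exposure changed the genes within a culture system. No tested member passed in any of the 4 exposure comparisons, and G6PC1 is described without a test in all 4. The share of all genes that passed was 0% for TiO2 on Transwell, 0% for TiO2 in the chip, 0% for ZnO on Transwell and 0.272% for ZnO in the chip (limma, adjusted p below 0.05), while 591, 1997, 835 and 2109 genes respectively had an unadjusted p below 0.05. G6PC1 averaged 4.40 in chip TiO2 and 3.28 in chip TiO2-control, where it lay below the array medians and which was among the groups by which it was chosen. The groups overlapped, since the lowest exposed array, 3.69, fell under the highest control array, 3.96, while the other 3 exposed arrays read above all control arrays.

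FBP1 differed by 0.72 ± 0.37 after TiO2 in the chip (interval -0.04 to 1.49, adjusted p = 0.592, limma), and PCK2 by -0.38 ± 0.14 (interval -0.68 to -0.09, adjusted p = 0.441, limma). Without both chip arrays numbered 4, the differences after TiO2 were 0.97 for G6PC1, 0.95 for FBP1, -0.46 for PCK2, -0.45 for PCK1, 0.45 for PC, 0.32 for G6PC3 and -0.08 for SLC37A4. No tested member passed there in limma. After ZnO in the chip PCK2 differed by -0.30 ± 0.14 (interval -0.59 to 0.00, adjusted p = 0.525, limma). On Transwell the differences of all 7 genes lay between -0.17 and 0.16 after TiO2 and between -0.16 and 0.10 after ZnO, with intervals that for G6PC1 reached from -0.91 to 0.57 and from -0.76 to 0.61. With all arrays, PCK1 in the chip differed by -0.20 after TiO2 (interval -0.93 to 0.54, and -0.53 to 0.12 as the range with 1 array left out) and by -0.18 after ZnO (interval -0.91 to 0.56).

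**Figure D3:**
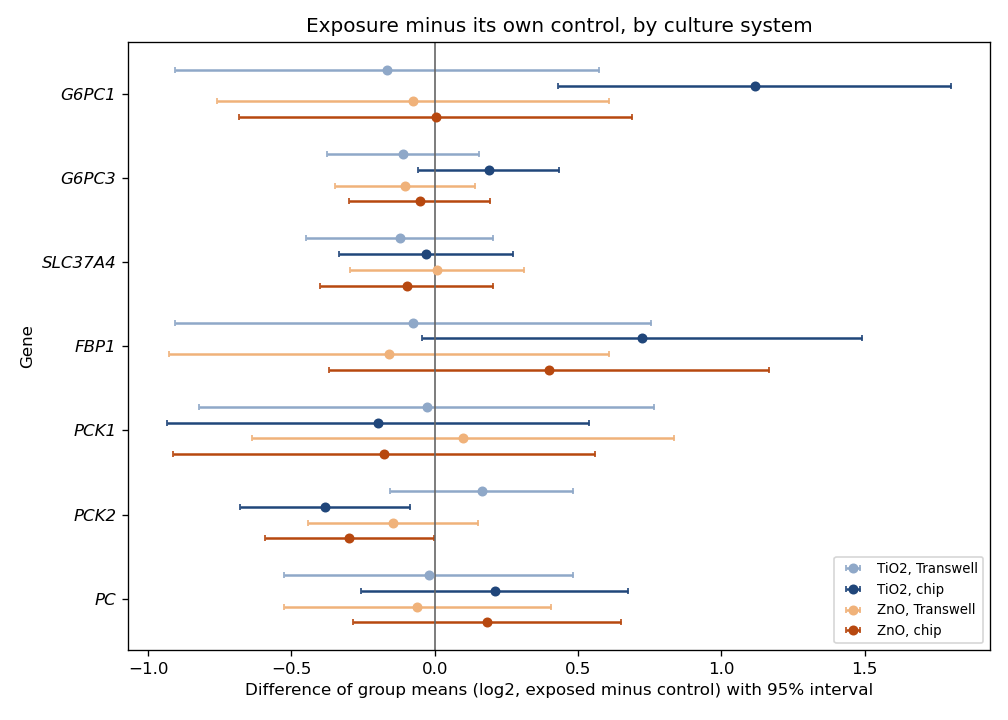
Exposed minus control difference of group means (log2, horizontal axis) for each gene (vertical axis), by nanomaterial and culture system, with 95% intervals from the limma fit that are not adjusted for the number of genes. Most intervals span 0; those of G6PC1 and PCK2 after TiO2 in the chip and PCK2 after ZnO in the chip do not, and none passed after adjustment. For G6PC1 the control levels of both systems led to its choice, so its intervals are no test. In the chip its control levels also lay below the array medians.

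The responses were also set against each other between the systems. For TiO2 no tested member passed, where 0% of all genes did and 1215 had an unadjusted p below 0.05. For ZnO no tested member passed either, where 0.00447% did, which is 1 gene, and 1345 had an unadjusted p below 0.05. The TiO2 response of PCK2 differed by -0.55 ± 0.21, chip minus Transwell (adjusted p = 0.867, limma). It differed by -0.63 without both chip arrays numbered 4 (adjusted p = 0.326, limma), and the other tested members did not pass either. For G6PC1 the contrast uses the control levels of both systems, by which it was chosen, so G6PC1 is not counted as tested here.

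The 2 control media belong to separate exposure sets, so medium and set cannot be told apart. No member passed between ZnO-control and TiO2-control on Transwell, where 6.64% of all genes did, or in the chip, where 0.058% did. No member passed for the difference between those contrasts, where 2.74% of genes passed. The member closest to passing there was G6PC3, with a chip minus Transwell difference of -0.44 in TiO2-control and 0.09 in ZnO-control, a change of 0.53 ± 0.17 (adjusted p = 0.0876, limma). It passed with array weights (adjusted p = 0.0397, limma) and without both chip arrays numbered 4, at 0.57 (adjusted p = 0.0496, limma). The same contrast of G6PC1 was 0.27 with all arrays and 0.00 without both, and that of PCK2 was 0.12 and -0.02. In the chip alone, the ZnO-control minus TiO2-control difference without both was -0.50 for G6PC1, -0.86 for FBP1, -0.87 for PCK1, -0.47 for PC, -0.32 for PCK2, 0.29 for G6PC3 and -0.10 for SLC37A4, beside -0.23, -0.67, -0.66, -0.42, -0.19, 0.25 and -0.06 with all arrays. On Transwell G6PC1 differed by -0.51 ± 0.33, ZnO-control minus TiO2-control (adjusted p = 0.454, limma), and it passed when only those groups entered the limma fit (adjusted p = 0.0221).

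The members differed in how much replicates of a group varied. The SD within groups was 0.784 in the chip and 0.133 on Transwell for FBP1, a ratio of 5.90. It was 0.748 and 0.148 for PCK1, a ratio of 5.04, and 0.66 and 0.26 for G6PC1, a ratio of 2.54. PC followed with 2.15 and G6PC3 with 1.96, whereas PCK2 (1.31) lay close to the median ratio of all genes, 1.30, and SLC37A4 varied less in the chip (0.816). Among genes brighter than the array medians the median ratio was 1.45. G6PC1 lay below the array medians in chip TiO2-control, ZnO-control and ZnO, so its SD in the chip includes spread near background. Without both chip arrays numbered 4 the ratios were 5.28 for FBP1, 5.29 for PCK1, 2.49 for G6PC1 and 1.70 for PC. They were 1.87 for G6PC3, 1.12 for PCK2 and 0.87 for SLC37A4, beside medians of 1.25 over all genes and 1.365 over the brighter genes. These ratios have no test.

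**Figure D4:**
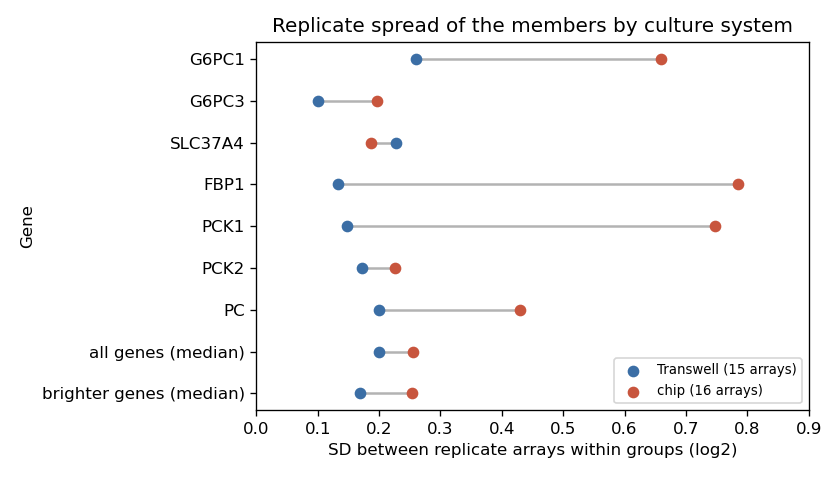
SD between replicate arrays within groups (log2, horizontal axis) of each gene (vertical axis), blue for the 15 Transwell arrays and red for the 16 chip arrays, with the median over all genes and over the brighter genes in the bottom rows. FBP1, PCK1 and G6PC1 have the widest gaps, and SLC37A4 alone has the smaller SD in the chip.

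For each of the 5 members whose group means spanned 1 log2 unit or more, the 3 genes with the most similar profile over the 8 group means were found by the root mean square distance after centring. G6PC1 lay closest to HSD17B2 (0.295), a hydroxysteroid dehydrogenase, then C17orf78 (0.298) and HSD3B1 (0.317), another steroid dehydrogenase. FBP1 lay closest to MGAM2 (0.186), a relative of the brush-border maltase, then ADAM22 (0.203) and the prolactin receptor PRLR (0.222). The profiles of SLC37A4 and PC had closer neighbours, namely MTMR4 (0.0618), the peptidase PEPD (0.0693) and FAM86C2P (0.0744) for the former, and the syndecan SDC2 (0.0691), SMPDL3A (0.0809) and the lysosomal cystine transporter CTNS (0.0881) for the latter. PCK1 lay closest to LIMCH1 (0.253), CASP5 (0.263) and CEACAM7 (0.267). The distances are in log2 units and describe 8 group means that mainly differ by culture system.

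Genes around the pathway were taken from lists of glucose metabolism and are given for the exposed arrays as chip minus Transwell differences on the log2 scale. For every list, the share of all genes that passed was 18.2% after TiO2 (10.2% lower) and 29.8% after ZnO (16.5% lower). The paralogs G6PC2 and FBP2 were below the array medians in every group and did not pass. Of 11 measured enzymes of the reversible steps shared with glycolysis, 1 was higher and 1 lower in the chip after TiO2, and 4 were higher and 0 lower after ZnO. The enolase ENO2 was higher by 1.26 after TiO2 and 2.06 after ZnO, and ENO1 (0.72), the isomerase TPI1 (0.62) and the aldolase ALDOA (0.23) were higher after ZnO. ALDOC was lower (-0.50 after TiO2). The list medians were 0.01 and 0.23, beside 0.01 and 0.02 over all genes.

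Of 14 glycolytic enzymes that oppose the members, 3 were higher and 3 lower after TiO2, and 6 were higher and 1 lower after ZnO, with medians of 0.06 and 0.16. Of all genes, 7.92% were higher after TiO2 and 13.3% after ZnO. Of the hexokinases, which run against glucose-6-phosphatase, HK1 was higher by 1.05 after TiO2 and 2.28 after ZnO, HKDC1 by 1.34 and 1.48, and HK2 by 1.13 after ZnO. HK2 differed by 0.30 after TiO2 and HK3, below the array medians in every group, by 0.19 and -0.19, and these did not pass. The phosphofructokinase PFKP, which runs against FBP1, was higher by 1.24 after ZnO. After TiO2 PFKL was lower (-0.57), as was the regulatory enzyme PFKFB4 (-1.22).

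Of 15 genes of substrate supply and shuttles, 2 were higher and 3 lower after TiO2, and 2 were higher and 4 lower after ZnO, with medians of 0.01 and -0.08. PDK4, the kinase that inhibits pyruvate dehydrogenase, was higher by 2.93 after TiO2 and 2.55 after ZnO, and it was below the array medians in all 4 Transwell groups. GPD1, the glycerol phosphate dehydrogenase, was lower (-1.44 and -1.67). The dicarboxylate carrier SLC25A10 was lower (-0.80 and -1.19). The aspartate-glutamate carrier SLC25A13 was lower (-0.61 after TiO2), as was the pyruvate carrier subunit MPC2 (-0.67 after ZnO).

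Of 20 measured transcriptional regulators of the pathway, 4 were higher and 6 lower after TiO2, and 3 were higher and 9 lower after ZnO, with medians of -0.15 and -0.24. The nuclear receptor NR5A2 was lower (-1.51 and -2.09), as was the glucocorticoid receptor NR3C1 (-0.85 and -1.37). After ZnO the pioneer factor FOXA1 was lower (-1.86), and after TiO2 it averaged 7.51 in the chip and 8.25 on Transwell. CEBPA was lower after ZnO (-1.86) and after TiO2 (-0.64, adjusted p = 0.0327, limma). The latter call was lost without both chip arrays numbered 4 (-0.51). ATF4 was higher by 0.76 after TiO2, as was CRTC2, a coactivator of CREB, by 0.67. After ZnO CRTC2 averaged 7.82 in the chip and 6.72 on Transwell, and ATF4 averaged 10.16 and 9.97. The coactivator PPARGC1A differed by 0.13 ± 0.24 after TiO2 and -0.19 ± 0.22 after ZnO and did not pass in either.

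Of 15 genes of glycogen metabolism and glucose transport, 1 was higher and 8 lower after TiO2, and 4 were higher and 9 lower after ZnO, with medians of -0.69 and -0.52. The lower ones included transporters of the enterocyte, namely SLC5A1, the apical sodium-glucose transporter (-1.23 and -1.65), the fructose transporter SLC2A5 (-1.50 and -2.25), and SLC2A2 (-1.02 and -1.78), the basolateral transporter through which glucose leaves the cell. The fructose-handling kinases TKFC (-1.33 after TiO2) and KHK (-1.54 after ZnO) and the mutase PGM1 (-0.80 after TiO2) were lower too. Genes of this list that were higher are not named here. Without both chip arrays numbered 4, 18.1% of all genes passed after TiO2. The higher and lower calls after TiO2 without both chip arrays numbered 4 were 1 and 7 in this list, 5 and 4 among the regulators, 1 and 0 among the reversible steps (ALDOC no longer passed), 3 and 3 among the opposing enzymes, and 2 and 3 in substrate supply.

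**Figure D5:**
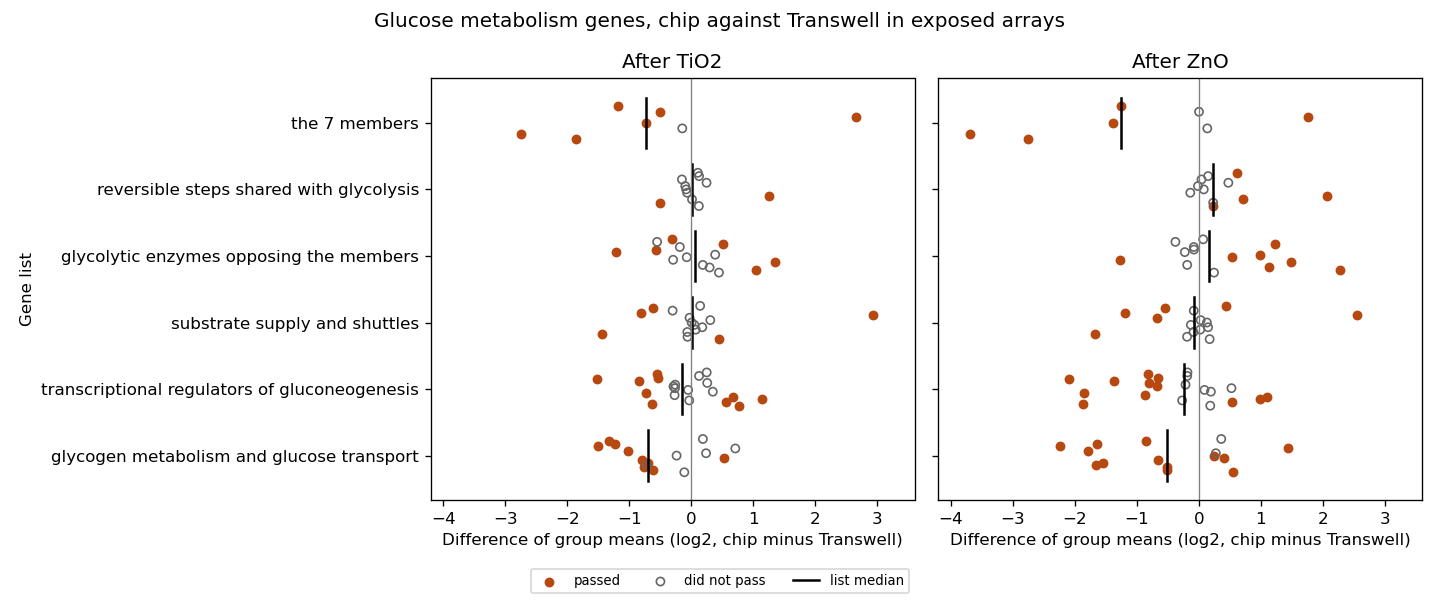
Chip minus Transwell difference (log2, horizontal axis) of every measured gene of 6 lists (vertical axis) after TiO2 and after ZnO; filled points passed in limma at an adjusted p below 0.05, open points did not, and vertical bars are list medians. The medians of the 7 members, -0.73 and -1.26, and of glycogen metabolism and glucose transport, -0.69 and -0.52, lie lowest.

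Markers of other gluconeogenic cell types were read in the same arrays, beside the shares of all genes. Of all genes 18.2% passed after TiO2 (7.92% higher, 10.2% lower) and 29.8% after ZnO (13.3% higher, 16.5% lower). Of 11 measured hepatocyte markers 0 were higher and 2 lower in the chip after TiO2, and 1 was higher and 6 lower after ZnO. The list mean ran from 7.39 to 7.65 on Transwell and from 6.83 to 7.84 in the chip. Of 7 measured proximal tubule markers 3 were lower after each exposure, the endocytic receptors CUBN (-2.37 and -4.16) and LRP2 (-2.30 and -3.04) and the transporter SLC5A2 (-0.86 and -0.96), with list means of 5.13 to 5.46 and 3.77 to 4.77. Of the 13 Caco-2 and enterocyte markers 3 were higher and 4 lower after TiO2, and 2 were higher and 4 lower after ZnO. After TiO2 VIL1 (-0.74) and CDX2 (-0.99) were lower, and KRT18 (0.59) and KRT20 (1.57) were higher. After ZnO the brush-border enzyme SI (-4.41), LGALS4 (-1.24) and VIL1 (-0.77) were lower, and KRT19 (0.79) was higher. The list means were 8.78 to 8.95 on Transwell and 8.37 to 8.92 in the chip. Of 13 stromal, endothelial and immune markers, 3 were higher and 1 lower after TiO2, and 1 was higher and 1 lower after ZnO, with list means of 3.98 to 4.34 and 3.87 to 4.50. On Transwell 6 of the 13 were above and 5 below the median of every array, and in the chip 5 were above and 4 below. Without both chip arrays numbered 4, the higher and lower calls after TiO2 were 1 and 2 for hepatocyte markers, 0 and 2 for proximal tubule markers (SLC5A2 no longer passed), 4 and 3 for Caco-2 and enterocyte markers, and 3 and 1 for the last list. Of all genes 18.1% passed after TiO2 without those arrays. The part of these markers in the differences of the 7 genes was not tested.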

How the data were processed

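Total RNA was profiled on Affymetrix whole-transcript arrays. The deposited values are log2 levels from RMA, which the submitters' processing notes name; its version is not given in the sources used here. Quantile normalisation within RMA gives all arrays 1 distribution, so a change of all genes together would not be seen. Of 53617 probe sets on 31 arrays, 0 values were missing. Probe sets with 1 annotated gene were kept (23871; 1842 had several genes and 27904 none). The symbols of 22569 were matched to the RefSeq table by gene identifier. Of several probe sets of a gene the brightest over all arrays was used, which left 22395 genes. The annotation of SLC37A4 repeats 1 symbol and was counted as 1 gene. The number of arrays limits the precision.

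Differences were fitted with limma 3.58.1 in R 4.3.3, with 1 mean per group over all 31 arrays (23 residual degrees of freedom), and adjusted with Benjamini-Hochberg over all genes at 0.05. The fit was tested on simulated data. Members and lists were chosen with earlier results of these data known. From each list up to 4 genes with the smallest p per comparison were named, and for each member of wide range the 3 genes nearest in profile. A gene named after 1 exposure may be given after both, and PPARGC1A, HK3 and HK2 after TiO2 were added after their values were seen. List counts, within-array differences and replicate spread without the chip arrays numbered 4 were also added after seeing the data. A further promoter motif is not reported here. List genes without a probe set of their own were not analysed here. Same-numbered replicates did not deviate together (correlations of -0.177 to 0.092), so no pairing was used. The alternatives were a replicate block, an intensity trend, array weights, only the groups compared, a filter on dim genes, the mean of probe sets, centred arrays, and leaving out arrays.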

Additional observations from a re-analysis of the deposited data

Results flagged for a closer look

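Of 49 sets of 4 arrays (a member in a group), 3 had an array far from the other 3, and chance alone marks about 1 in 20 such sets. FBP1 in Transwell TiO2-control replicate 3 read 7.48, with the others between 7.58 and 7.59. PC in chip TiO2 replicate 4 read 4.67, with the others between 5.79 and 5.94. PC in chip ZnO replicate 1 read 4.45, with the others between 5.31 and 5.35.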

How the results depend on the processing

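Of 1722 values of the members under alternatives, over 98 results, 1710 kept their call (or, where untested, moved by less than the replicate spread), 9 no longer passed, 3 newly passed and 0 called values changed sign, whereas some small differences that did not pass changed sign with 1 array left out. With 1 array left out, 4 to 6 members passed after TiO2 and 5 after ZnO between chip and Transwell. There, 3073 to 3891 of all genes passed after TiO2 and 6035 to 6395 after ZnO. In every exposure, response and control-medium comparison 0 members passed, and G6PC1 is not counted as tested in the exposure and response comparisons. The count of members rose from 0 to 1 between the control media on Transwell when only those groups were fitted, and from 0 to 1 for the difference of the control-medium contrasts both with array weights and without both chip arrays numbered 4. With the replicate block, 6 members passed after TiO2 and 5 after ZnO, and no call of a member changed. Over all genes, the count for TiO2 in the chip was 0, with 73 without both chip arrays numbered 4, 1 or 2 with the block, trend, weights or filter, and up to 23 with 1 array left out. For ZnO on Transwell it was 0, with 1 under the block and 5 under weights. For ZnO in the chip it was 61, with 103 under an intensity trend or the filter, 25 with array weights, 0 with only those groups, and 9 to 144 with 1 array left out. Between the control media it was 1486 on Transwell, with 2834 under array weights and 845 to 1275 with 1 array left out. In the chip it was 13, with 58 under weights, 6 with centred arrays, 0 with only those groups, 388 without both chip arrays numbered 4 and 0 to 317 with 1 array left out. For the difference of these contrasts it was 613, and 309 to 734 with 1 array left out. The response differences had 0 or 1 gene throughout. The causes were not tested. Signals below the array medians limit what the chip arrays show of G6PC1.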
